A study of Mus musculus with 2 samples.

Results

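The genes described here are those of the mouse proteasome, chosen by symbol: every protein-coding gene named Psma, Psmb, Psmc, Psmd, Psme, Psmf or Psmg followed by a number, except Psmb11. The rule took 49 genes out of 43346 gene rows, of which 21474 code for protein. It used names only and no measured value. The libraries are 2 total RNA-seq libraries of whole lung from B6NCrl mouse embryos on embryonic day 16.5, numbered 1 and 2 as biological replicates and forming 1 group. Both are mixed-sex pools, of 41 embryos in replicate 2 and of a number not given in the sources used here in replicate 1. The labels name no treatment or mutation and no second group, so levels and ratios are described and no condition is compared.

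The proteasome is the protease that degrades ubiquitin-tagged proteins. Its core particle is a barrel of alpha and beta rings with the proteolytic sites on the inside of the beta rings, and a regulatory particle of an ATPase base and a lid recognises, unfolds and feeds in the substrate. In leukocytes and in cells exposed to interferon gamma, 3 catalytic beta subunits are replaced by the immunoproteasome subunits encoded by Psmb8, Psmb9 and Psmb10, which shift cleavage towards peptides that MHC class I can present. Psmb9 takes the place of Psmb6, Psmb10 that of Psmb7, and Psmb8 that of Psmb5.

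The catalytic site of each of these 6 genes is the threonine that becomes the first residue of the mature subunit once its propeptide is removed. The 60 coding bases that begin at this codon are shown for each standard gene and its immunoproteasome counterpart, because they carry the catalytic residue and show how far apart the paired genes are for a sequencing read. They come from the GENCODE M21 transcripts of mm10, 5′ to 3′, and the capitals mark the threonine codon.
Psmb6: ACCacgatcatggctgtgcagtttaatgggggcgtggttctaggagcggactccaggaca
Psmb9: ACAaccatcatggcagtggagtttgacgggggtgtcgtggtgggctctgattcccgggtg
Psmb7: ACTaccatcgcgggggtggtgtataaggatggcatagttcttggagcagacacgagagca
Psmb10: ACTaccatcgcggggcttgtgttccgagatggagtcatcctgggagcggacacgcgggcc
Psmb5: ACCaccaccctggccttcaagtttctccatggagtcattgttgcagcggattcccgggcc
Psmb8: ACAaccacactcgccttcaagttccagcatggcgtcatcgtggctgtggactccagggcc

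Of these 60 bases, 41 were identical between Psmb9 and Psmb6, 43 between Psmb10 and Psmb7, and 47 between Psmb8 and Psmb5. Over the aligned coding sequences the identities were 64.6%, 63.4% and 66.7%, and the longest stretch without a difference was 11, 15 and 18 bases. The codon is preceded by 33 codons in Psmb6, 43 in Psmb7, 59 in Psmb5, 20 in Psmb9, 39 in Psmb10 and 72 in Psmb8, counted in the longest open reading frame of each gene.

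The expected counts summed to 38852470 (replicate 1) and 27145411 (replicate 2), where an expected count is an estimate in which a read that matches several transcripts is divided among them. Levels are given in TPM, a share of the library that divides by effective length and so allows genes to be compared within it. Where 2 values are given for a gene or set, the former is replicate 1 and the latter replicate 2. Genes that define lung tissue were present at high level, with the surfactant gene Sftpc at 10883 and 14172 TPM in replicates 1 and 2. The libraries differed in transcripts of other organs: all 5 liver markers and all 4 skeletal muscle markers were higher in replicate 2. Their summed levels were 59.0 and 480 TPM for liver and 101 and 349 TPM for muscle. These lists, like the others used here, were chosen with earlier results of these data known. With 2 replicates a two-sided exact sign-flip test cannot give a p below 0.5, so no p-value is given, and the spread is the standard deviation (SD) of the replicates.

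The proteasome genes held 0.887% of all TPM in replicate 1 and 0.889% in replicate 2. Detection at 1 TPM or more in both replicates was met by 48 of the 49, against 61.5% of all protein-coding genes. A level of 100 TPM or more in both was met by 33 of the 49 (67.3%), against 7.06% of protein-coding genes. The median of the 49 was 171 ± 3.87 TPM (SD, n = 2). In 44 of the 49 genes the SD was at most 10% of the mean, and the other 5 were Psmb8, Psmb9, Psmb10, Psme2b and Psma8. The share over all genes at a like level was not computed, so the 44 do not set the proteasome genes apart.

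**Figure D1:**
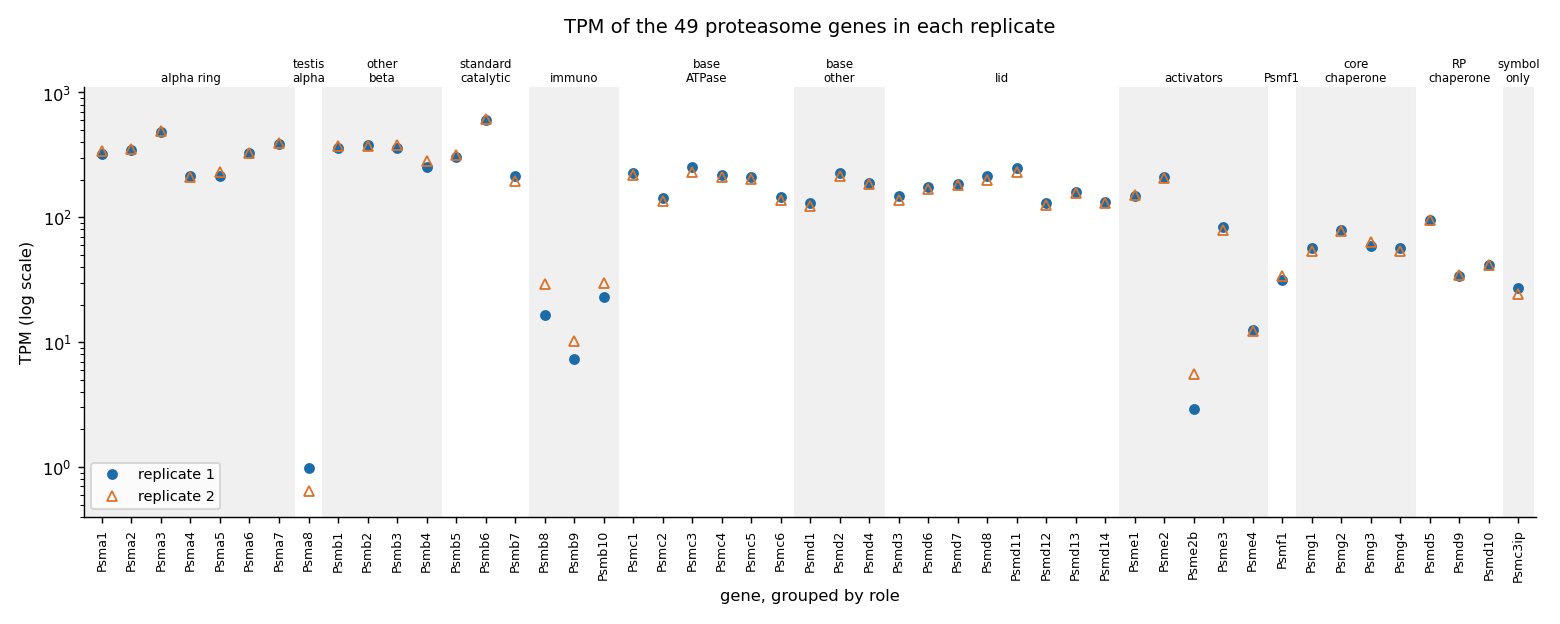
TPM on a log axis for each of the 49 genes, grouped by role, with circles for replicate 1 and open triangles for replicate 2. The 14 standard core genes lie between 205 and 607 TPM on average and the 17 regulatory particle genes between 127 and 242 TPM, while Psmb8, Psmb9 and Psmb10 lie below 30 TPM with their symbols apart.

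The alpha ring is built from the products of Psma1 to Psma7, whose tails form the gate of the barrel. Its median was 326 and 342 TPM. Over all transcripts, coding or not, Psma3 was highest, at 484 and 495 TPM, followed by Psma7 at 386 and 396 TPM. Psma4 and Psma5 were lowest, with means of 212 and 221 TPM. They were level in replicate 1, at 212 and 213 TPM, and apart in replicate 2, at 212 and 230 TPM. Psma8, which encodes the alpha subunit of the testis proteasome that replaces the product of Psma7, was the one gene under the detection limit, at 0.98 and 0.64 TPM from 41 and 19 expected counts. The germ cell genes Ddx4, Dazl, Sycp3 and Stra8 were all under 1 TPM, with Sycp3 listed at 0 in replicate 1.

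The beta subunits without a catalytic site come from Psmb1 to Psmb4. Psmb1, Psmb2 and Psmb3 were close to each other, at means of 365, 376 and 372 TPM, and their order differed between the replicates. Psmb4 was lower, at 255 and 281 TPM.

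Among the standard catalytic genes, Psmb6, which encodes the subunit that cleaves after acidic residues, was at 597 and 617 TPM. It was the highest of all 49 genes. Psmb5, the subunit that cleaves after hydrophobic residues and is the main target of bortezomib, was at 302 and 314 TPM. Psmb7, which cleaves after basic residues, was at 215 and 196 TPM, the lowest mean of the standard core. The order Psmb6, Psmb5, Psmb7 was the same in both replicates, and Psmb6 exceeded Psmb7 2.78-fold in replicate 1 and 3.15-fold in replicate 2. These 3 proteins occupy equal numbers of places in a complete core.

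The immunoproteasome genes were all detected, at a small fraction of the standard genes. Psmb10 (chr8:105935735-105938444, minus strand, mm10) was at 23.2 and 29.7 TPM. Psmb8 (chr17:34197721-34201454, plus strand) was at 16.4 and 29.3 TPM. Psmb9 (chr17:34181987-34187764, minus strand) was at 7.35 and 10.3 TPM, from 194 and 223 expected counts. Psmb9 was the lowest of the 3 in both replicates, whereas Psmb10 exceeded Psmb8 1.41-fold in replicate 1 and 1.02-fold in replicate 2. In such whole-tissue samples, fewer cells of a type and less RNA per cell cannot be told apart.

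Set against the gene whose place it takes, each immunoproteasome gene was lower in both libraries. The log2 ratio of Psmb9 to Psmb6 was −6.13 ± 0.31 (SD, n = 2), with Psmb6 81.2-fold higher in replicate 1 and 60.1-fold higher in replicate 2. The ratio of Psmb8 to Psmb5 was −3.81 ± 0.55 (SD, n = 2), with Psmb5 18.4-fold and 10.7-fold higher. The ratio of Psmb10 to Psmb7 was −2.97 ± 0.35 (SD, n = 2), with Psmb7 9.27-fold and 6.58-fold higher. The 3 pairs kept the same order in both replicates, and the gaps between their means were larger than the SDs. The place of the product of Psmb7 was thus the one with the largest immunoproteasome share of transcripts, at 9.74% and 13.2% of the pair, against 5.15% and 8.54% for Psmb8 and 1.22% and 1.64% for Psmb9.

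Over all 6 genes, the immunoproteasome share of TPM was 4.04% in replicate 1 and 5.79% in replicate 2 (4.92% ± 1.24, SD, n = 2). By expected counts, without division by length, it was 5.62% and 7.91%. The immunoproteasome transcripts are the longer ones, with effective lengths of 1003 to 1171 bases in replicate 1 against 692 to 984 for the standard genes.

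**Figure D2:**
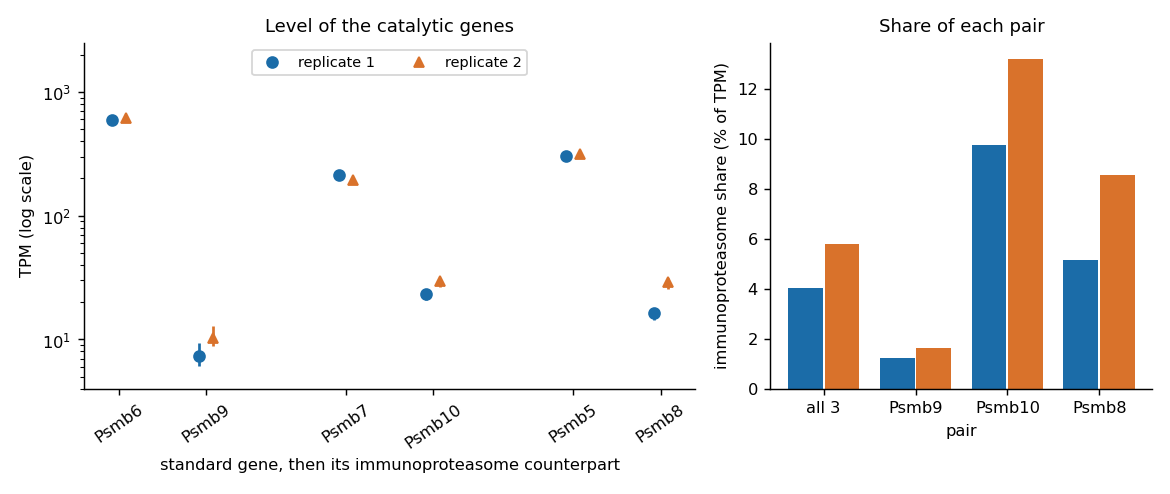
Left, TPM on a log axis of each standard catalytic gene and its immunoproteasome counterpart, with vertical lines for the deposited credibility bounds; right, the immunoproteasome share of TPM of all 6 genes and of each pair, as bars from 0. Every standard gene is higher than its counterpart in both replicates, and every share is higher in replicate 2. Some points lie outside their bounds, as those of Psmb6 do in both replicates.

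The regulatory particle was lower and more even than the core. The 6 ATPases of the base, Psmc1 to Psmc6, which unfold the substrate, had a median of 213 and 206 TPM, with Psmc3 highest at 251 and 233 TPM and Psmc2 lowest at 142 and 136 TPM. The scaffold genes of the base, Psmd1 and Psmd2, were at means of 127 and 222 TPM, and Psmd4, a ubiquitin receptor, was at 188 and 187 TPM. The 8 lid genes had a median of 166 and 163 TPM. Within the lid, Psmd11, a scaffold subunit, was highest at 249 and 232 TPM, and Psmd14, the deubiquitinase that removes ubiquitin chains before entry, was near the bottom at 132 and 131 TPM.

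Across the 17 regulatory particle genes the means ran from 127 to 242 TPM, a 1.90-fold range, with an SD of 0.33 on the log2 scale across genes. Across the 14 standard core genes they ran from 205 to 607 TPM, a 2.96-fold range, with an SD of 0.44. Of the 14 core genes, 11 had a mean above that of the highest regulatory particle gene, and Psma4, Psma5 and Psmb7 did not. The core median exceeded the regulatory median 1.81-fold in replicate 1 and 1.90-fold in replicate 2. Evenness of this order was not particular to the proteasome: the 8 genes of the CCT chaperonin, a protein-folding ring, spanned 2.36-fold with an SD of 0.43, while the 9 genes of the COP9 signalosome, a complex related to the lid, spanned 8.56-fold with an SD of 0.92. Among all protein-coding genes at a mean of 1 TPM or more the SD was 2.11.

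The assembly chaperones of the core, Psmg1 to Psmg4, do not remain in the finished particle and were at means of 55.5, 78.5, 61.1 and 55.3 TPM. Those of the base, Psmd5, Psmd9 and Psmd10, were at 95.2, 34.1 and 41.8 TPM. Their medians, 58.3 and 41.8 TPM, were below every core and regulatory particle gene. Pomp, which encodes a further maturation factor of the core and is not covered by the symbol rule, was at 331 and 334 TPM, a level like that of the core genes.

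Among the activators that can cap the core in place of the regulatory particle, Psme1 and Psme2, the subunits of the interferon-responsive cap, were at 148 and 150 TPM and at 212 and 208 TPM. Both were far above the immunoproteasome genes with which they are often induced. Psme3, the nuclear relative, was at 84.3 and 78.6 TPM, and Psme4, a large nuclear activator, at 12.5 and 12.4 TPM. Psmf1, which encodes a protein that binds the core and inhibits it in vitro, was at 31.5 and 33.6 TPM. Psmc3ip matches the symbol rule but encodes a cofactor of meiotic recombination named for binding the product of Psmc3, and it was at 27.0 and 24.4 TPM.

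Psme2b, a gene of 1 exon on chromosome 11, was listed at 2.89 and 5.52 TPM. Its coding sequence matches that of Psme2 in 715 of 720 bases (99.3%), with an identical run of 311 bases. The expected counts of Psme2b, 55.8 and 75.5, depend on how the authors' quantification divided reads that match both genes, so its level is uncertain. Processed pseudogenes named for the standard catalytic genes took almost no reads, at most 0.45 TPM for Psmb6-ps2.

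The transcripts of the 49 genes numbered 223, of which 218 were matched to GENCODE M21 names and classes. Of the 39 genes with more than 1 transcript, 37 had the same leading transcript in both replicates, and Psme2 and Psmg3 did not. In 33 of the 39 the leading transcript held at least 50% of the TPM of the gene in both replicates, and in 21 at least 90%. Transcripts annotated as protein coding held at least 90% in both replicates in 38 of the 49 genes.

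Psmb4 and Psma3 were exceptions within the core. In Psmb4 the retained-intron transcript Psmb4-202 led, with 49.8% and 54.2% of TPM, and coding TPM was 117 and 115. In Psma3 the retained-intron transcript Psma3-203 led with 33.3% and 31.2%, and coding TPM was 166 and 223. The higher coding value in replicate 2 came through Psma3-208, a coding transcript of 312 bases, at 8.17 and 91.4 TPM. The coding transcript Psma3-204 was lower in replicate 2, at 121 and 93.3 TPM. The order of the core genes therefore changes with the transcripts counted: over coding transcripts alone Psmb4 had the lowest mean of the core, 116 TPM, and 9 of the 14 core genes, not 11, lay above the highest regulatory particle gene. Psma3, the highest of the alpha ring over all transcripts, had its lowest coding mean, 195 TPM, against 207 TPM for Psma4. In replicate 2 alone Psma4 was lower than Psma3, at 206 TPM. Psmd13, a lid gene, had 55.4% and 57.1% of its TPM in coding transcripts, and Psmc3ip had 19.9% and 25.6%. A further 15.3% and 17.4% of Psmd13 lay in transcripts without a match in GENCODE M21, so its coding share is a lower limit.

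Most TPM of the immunoproteasome genes was in coding transcripts: 99.6% and 99.7% in Psmb8, and 89.3% and 98.0% in Psmb9. Psmb10, with a single deposited transcript, was at 100% by annotation. Its ratio to Psmb7 over coding transcripts could therefore differ only through Psmb7. Psmb8 was divided between the coding transcripts Psmb8-203, with 64.8% and 70.5%, and Psmb8-201, with 34.8% and 29.2%. Psmb9-204 led Psmb9, with 68.1% and 85.5%. Over coding transcripts alone the pair ratios were −6.09 ± 0.41 for Psmb9 to Psmb6, −2.82 ± 0.25 for Psmb10 to Psmb7 and −3.82 ± 0.55 for Psmb8 to Psmb5 (log2, SD, n = 2), each within the SD of the value over all transcripts.

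**Figure D3:**
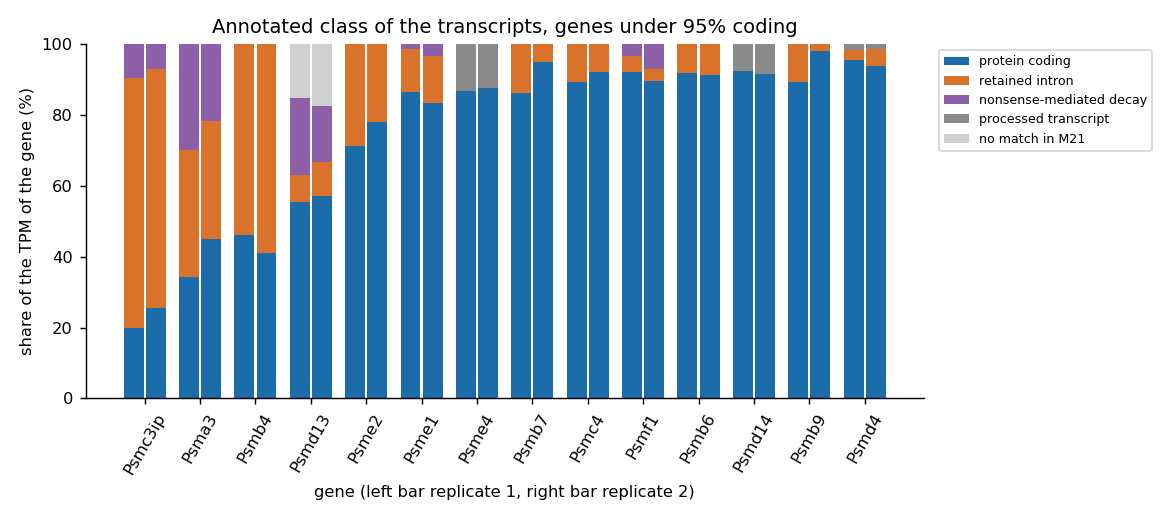
Share of the TPM of a gene, in percent, by annotated transcript class, for the 14 genes with under 95% in coding transcripts; the left bar of each pair is replicate 1 and the right bar replicate 2. Psmc3ip, Psma3 and Psmb4 have less than 50% in coding transcripts in both replicates.

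The replicates were compared by the difference in log2(TPM + 1), replicate 2 minus replicate 1, over the 15493 genes whose mean reached 1 TPM. The pseudocount of 1 understates the difference of low genes. Among the 48 proteasome genes that passed, 0 differed 2-fold or more, against 2.67% of all genes. At 1.5-fold, 2 were higher in replicate 2, Psmb8 and Psme2b (background 4.65%), and 0 were lower (background 1.38%). By the deposited credibility bounds, 6 of the 48 (12.5%) were higher in replicate 2 with bounds that did not overlap (background 6.71%). By the same measure 8 (16.7%) were lower (background 9.9%). Both shares were above the background, which was not matched to the high level of the proteasome genes. The 6 were Psma1, Psma5, Psmb4, Psmb8, Psmb10 and Psme2b, and the 8 were Psmb7, Psmc3, Psmc6, Psmd1, Psmd2, Psmd3, Psmd8 and Psme3. Those bounds cover estimation within a library, not the spread between embryos. At any size of difference, 21 of the 48 were higher in replicate 2, against 50.2% of all genes, and 27 were lower, against 49.5%.

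The core and the regulatory particle leaned in opposite directions by small amounts. Of the 14 standard core genes 11 were higher in replicate 2, with a median difference of 0.04, and the 17 regulatory particle genes were all lower, with a median of −0.06 and a range from −0.12 to −0.00. The median over all genes tested was 0.00. The core count was 10 with counts scaled by the TMM method and 9 with DESeq2 size factors, and the regulatory particle count was 17 with both. With posterior mean TPM the regulatory particle count was 16. Over coding transcripts alone the counts were 11 for the core and 16 for the regulatory particle, with Psmd13 the exception. Psma3, among those 11, was higher through Psma3-208. Other sets were as uniform: the 8 CCT chaperonin genes and the 6 genes of ubiquitin and its activation were also all lower in replicate 2, under each of these scalings.

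Transcript length differed between the core and the regulatory particle. Effective lengths in replicate 1 ran from 670 to 1140 bases in the core and from 1217 to 2946 bases in the regulatory particle, so the sets did not overlap. Among protein-coding genes at 100 TPM or more, 44.1% were higher in replicate 2 when shorter than 1000 bases, 42.3% from 1000 to 1500, 30.2% from 1500 to 3000, and 24.1% from 3000. In the class below 1000 bases, which held no regulatory particle gene, 9 of 11 core genes were higher. In the class from 1000 to 1500 bases, 2 of 3 core genes and 0 of 11 regulatory particle genes were higher. The part of length in the result was not tested.

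The lower gene-level value of Psmb7 in replicate 2 lay outside its coding transcript. Coding TPM of Psmb7 was 185 and 186, and the rest of the gene held 30.01 and 10.01 TPM. For Psmb4, coding TPM was 117 and 115 while the rest held 137 and 166 TPM. In both genes the credibility bounds of the gene totals were apart although the coding level differed little.

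**Figure D4:**
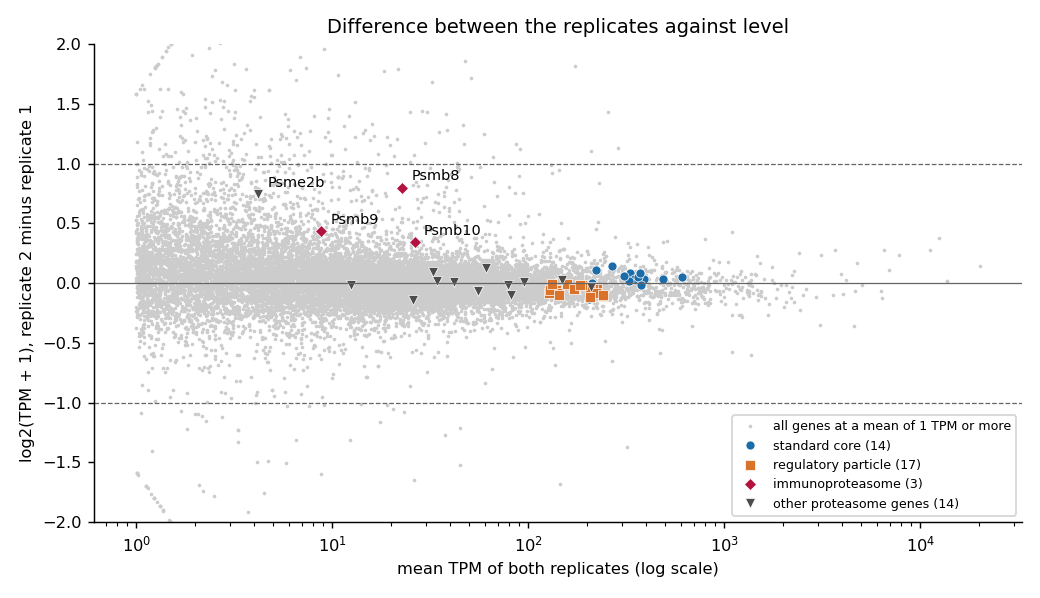
Difference in log2(TPM + 1) between the replicates against mean TPM (log axis) for 15493 genes in grey, 137 of which lie beyond the vertical axis, and for the proteasome genes in colour; dashed lines mark 2-fold. The core and regulatory particle genes sit close to 0 at the high end of expression, while Psmb8, Psmb9, Psmb10 and Psme2b sit above it.

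All 3 immunoproteasome genes were higher in replicate 2. The differences were 0.80 for Psmb8, 0.43 for Psmb9 and 0.34 for Psmb10, with a median of 0.43 against 0.00 over all genes tested. The bounds were apart for Psmb8 and Psmb10 and overlapped for Psmb9, at 6.12 to 9.29 and 8.86 to 12.9 TPM. The standard genes they replace differed by 0.06 for Psmb5, 0.05 for Psmb6 and −0.14 for Psmb7.

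Markers of T cells and thymus moved in the same direction, though this list was chosen with earlier results of these data known. Of the 10 genes on that list, 8 had a mean of at least 1 TPM and all 8 were higher in replicate 2, with a median difference of 1.21. The summed level of the list was 32.7 and 83.9 TPM. Cd3g, a chain of the T cell receptor complex, was at 5.19 and 13.8 TPM, Lck, its kinase, at 9.09 and 22.2 TPM, and Prss16, the thymus-specific protease, at 8.20 and 21.3 TPM. Psmb11, the thymic epithelial counterpart of Psmb5 and Psmb8 that the symbol rule left out, was at 0.98 and 3.59 TPM. Dntt was at 0.02 and 0.08 TPM, Foxn1 was at 0.64 and 0.97 TPM, and no gene of the list was at 0. Among leukocyte markers 5 of 6 were higher in replicate 2, with summed levels of 184 and 213 TPM, and Ptprc at 3.64 and 5.45 TPM. Among macrophage markers 7 of 7 were higher, with summed levels of 129 and 140 TPM and a median difference of 0.15. The part of thymic, leukocyte and macrophage transcripts, and of the liver and muscle transcripts given above, in the immunoproteasome difference was not tested.

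Genes that act beside the immunoproteasome in antigen presentation showed a mixed pattern. Of the 11 on the list, 10 had a mean of at least 1 TPM and 7 of these were higher in replicate 2, or 6 with TMM scaling, DESeq2 size factors or posterior mean TPM, with a median difference of 0.15 in TPM. Tap1 and Tap2, the peptide transporter encoded next to Psmb9 and Psmb8, were at 6.09 and 8.08 TPM and at 10.2 and 15.1 TPM. Tapbp, which links the transporter to MHC class I, was at 47.5 and 59.0 TPM. The class I heavy chain genes H2-K1 and H2-D1 were at 40.8 and 55.6 TPM and at 119 and 135 TPM. B2m, the light chain, was at 342 and 345 TPM, and the folding factors Calr, Canx and Pdia3 were lower in replicate 2. Nlrc5, the transactivator of class I genes, was at 0.19 and 0.32 TPM.

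Interferon genes were present at varied levels. Of the 20 on the list, 17 had a mean of at least 1 TPM, and 10 of these were higher in replicate 2, with a median difference of 0.05. Ifng itself was at 0.03 and 0.05 TPM. The receptor genes Ifngr1 and Ifngr2 were at 66.3 and 71.7 TPM and at 43.5 and 43.2 TPM. Irf1, a transcription factor known to drive Psmb9 and Tap1, was at 24.9 and 28.4 TPM. Isg15, an interferon-induced ubiquitin-like modifier, was at 1.40 and 2.63 TPM.

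**Figure D5:**
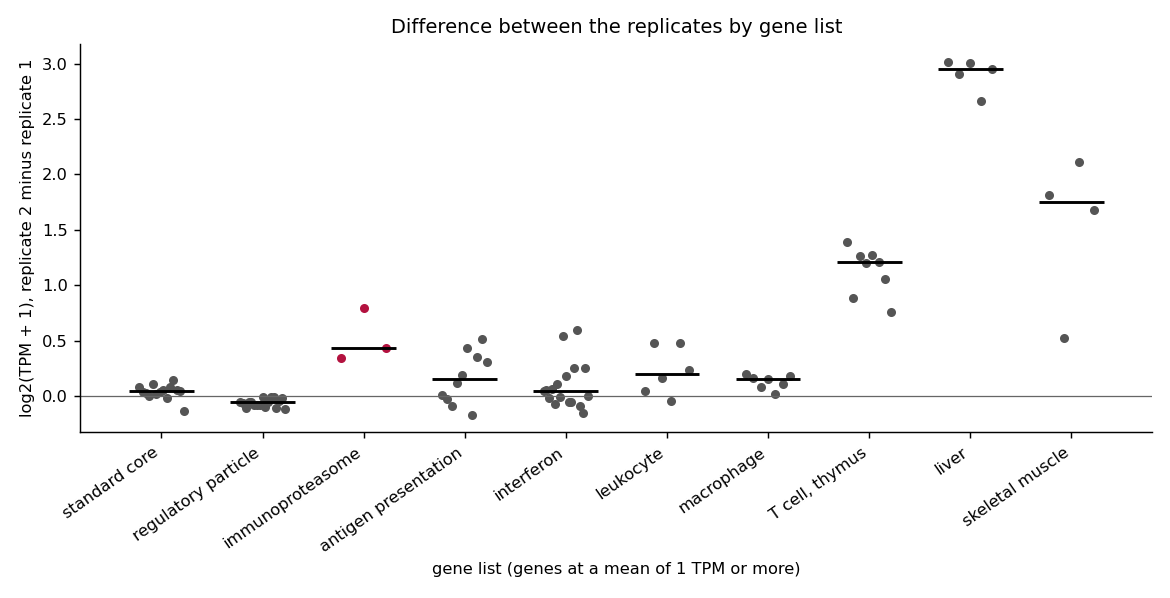
Difference in log2(TPM + 1), replicate 2 minus replicate 1, for each gene (points) at a mean of 1 TPM or more, with the median of each list as a bar. The medians are 0.04 for the standard core, −0.06 for the regulatory particle, 0.43 for the immunoproteasome genes and 1.21 for the T cell and thymus list.

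The transcription factors that raise proteasome genes when the proteasome is impaired were measured as well. Nfe2l1, the factor of the proteasome recovery response, was at 56.9 and 57.2 TPM, and its relative Nfe2l2, the factor of the oxidative stress response, at 112 and 115 TPM. Nfe2l3 was at 1.43 and 1.47 TPM. Ddi2, the protease that releases the product of Nfe2l1, was at 15.0 and 15.2 TPM, and Ngly1, which removes its glycans, at 25.6 and 26.4 TPM. All 9 genes of this list were detected, and they differed between the replicates by −0.16 to 0.11.

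The 14 partner genes measured outside the symbol rule had medians of 73.5 and 67.3 TPM, below those of the regulatory particle, with means from 7.05 TPM for Ube3c, a ubiquitin ligase that binds the proteasome, to 332 TPM for Pomp. Adrm1, a ubiquitin receptor of the base, was at 145 and 135 TPM, and Sem1, a small lid subunit, at 212 and 203 TPM. The deubiquitinase genes Usp14 and Uchl5 were at 118 and 112 TPM and at 74.5 and 68.4 TPM. Of the 14, 4 were higher in replicate 2 and 10 lower. Ubiquitin itself was more abundant than any subunit, with Ubb at 2661 and 2568 TPM.

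In the genome (mm10, GENCODE M21), the 49 genes were spread over 16 chromosomes, with 10 on chromosome 11. Psmb8 and Psmb9 lie 9956 bases apart on chromosome 17, with Tap1 between them. Psme1 and Psme2 lie 5911 bases apart on chromosome 14, and Psmb5 lies 3410 bases from Psmb11. In 15 of the 49 genes, another gene, coding or not, starts within 1 kb on the opposite strand. The same was not counted over all genes, so no excess can be read from it. Psmb9 and Tap1 overlap head to head, with starts 211 bases apart, and since no strand setting is given in the sources used here, reads from the overlap cannot be told apart.

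The start regions were searched on both strands for 4 short motifs in the 300 bases of the RefSeq promoter table (250 before and 50 after each start, GRCm38.p6), which held 44 promoters of 41 of the 49 genes. The antioxidant response element core TGACNNNGC, which Nfe2l1 and Nfe2l2 bind, was found in 13.6% of these promoters and 12.4% of all 32851. The interferon regulatory factor core AANNGAAA was found in 29.5% and 23.9%, the gamma activated site TTCNNNGAA in 6.82% and 8.30%, and CCAAT in 31.8% and 37.4%. The shares among proteasome genes were thus near those of all promoters. A match is a description of letters and not of a bound site.

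The 250 bases before the RefSeq starts of Psmb5 (chr14:54617996-54618245, minus strand) and Psmb6 (chr11:70525107-70525356, plus strand) are shown because these windows hold the antioxidant response element core close to the start. The third standard catalytic gene, Psmb7, was not analysed here for motifs. In Psmb5 the capitals mark TGACNNNGC, 47 bases before the start. In Psmb6 they mark AANNGAAA on the opposite strand at 70 bases and TGACNNNGC at 9 bases before the start.
Psmb5: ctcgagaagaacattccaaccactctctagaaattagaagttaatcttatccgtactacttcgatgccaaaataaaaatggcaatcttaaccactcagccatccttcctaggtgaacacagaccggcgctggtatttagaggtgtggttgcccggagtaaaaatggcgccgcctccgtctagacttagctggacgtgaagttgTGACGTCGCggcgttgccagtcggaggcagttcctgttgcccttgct
Psmb6: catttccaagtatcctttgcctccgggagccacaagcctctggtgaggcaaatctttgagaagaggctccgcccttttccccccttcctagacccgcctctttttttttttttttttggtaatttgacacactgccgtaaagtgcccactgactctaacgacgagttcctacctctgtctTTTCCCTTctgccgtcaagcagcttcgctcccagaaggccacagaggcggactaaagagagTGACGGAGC

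For the immunoproteasome genes, the RefSeq starts of Psmb8 and Psmb9 lie 474 and 434 bases inside the GENCODE genes, so their windows are exonic in Psmb8-201 and in the leading transcript Psmb9-204. The window of Psmb8 held TTCNNNGAA 97 bases before the RefSeq start, within chr17:34198088-34198117 (plus strand), the single match of the 4 motifs there, shown with its neighbours and with the match in capitals.
Psmb8: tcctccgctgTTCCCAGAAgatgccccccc
The window of Psmb9 held CCAAT on the opposite strand, 8 bases before the RefSeq start. The window of Psmb10 held none of the 4 motifs in these letters.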

How the data were processed

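Values came from 2 gene tables and 2 transcript tables that the authors deposited, 1 of each per library, made on mm10 with GENCODE M4 annotation per the notes deposited with the files. Neither the aligner, the quantifier nor the strand setting is given in the sources used here. Expected counts, as deposited, are estimated reads per feature. The deposited TPM divides by effective length (also deposited, in bases), and its total includes spike-ins and rows that carry bare numbers. The deposited score columns are the lower and upper credibility bounds of TPM within a library. The bounds need not hold the deposited TPM. For Psmb6 they hold the posterior mean TPM, 584 and 599, but not the TPM of 597 and 617. The deposited percent column is a transcript's share of its gene's TPM.

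Symbols and classes came from GENCODE M21 by identifier without version, which matched 42462 of 43346 gene rows. Replicate differences used log2(TPM + 1) over genes whose mean reached 1 TPM, with Python 3.11.15, pandas 2.3.3 and Biopython 1.88 (alignment). Scaling factors came from edgeR 4.0.16 and DESeq2 1.42.0 in R 4.3.3, on expected counts rounded to whole numbers. The replicate difference and the scaling step were checked on simulated data, and the other steps were not. No test was run, since an exact sign-flip test over 2 replicates cannot go below p = 0.5. The labels call them biological replicates, and each is a pool.

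The members and the lists (132 places) were chosen with earlier results of these data known. Named genes were every member, the list genes, the nearest gene starting within 1 kb on the opposite strand, and pseudogenes named for a member. Paaf1 had no matching row and was not analysed here. Markers of endothelium (1 of 5 higher in replicate 2), epithelium (3 of 5), mesenchyme (3 of 4, or 1 of 4 under TMM scaling, DESeq2 size factors and posterior mean TPM), erythroid cells (4 of 4) and testis germ cells (0 of 4 at a mean of 1 TPM) were also read. A few items of the lists and sequences are not reported here.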

Additional observations from a re-analysis of the deposited data

How the results depend on the processing

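No paired analysis was possible because the series holds a single group, so no replicate number is shared between groups. Of the 115 alternative values for the main results, 97 stayed within the SD of the replicates or within 1.5 times the count. No pair ratio changed sign. Some of the 97 could not have come out otherwise, so that number does not measure stability. A level, ratio or share from a single library always lies within the SD of 2 replicates. A count of genes higher or lower cannot change with the pseudocount or the fold. With TPM rescaled over gene rows, the median of all members became 180 TPM, that of the standard core 360 TPM, that of the regulatory particle 194 TPM and that of the interferon list 14.4 TPM. With posterior mean TPM, the median of all members was 167 TPM and that of the regulatory particle 179 TPM. With coding transcripts only, an alternative chosen after seeing the data, the core median was 326 TPM and the regulatory median 177 TPM. With the mean in place of the median, over all transcripts, the regulatory particle was at 180 TPM. With expected counts not divided by length, the Psmb9 to Psmb6 ratio was −5.47 and the immunoproteasome share 6.77%.

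For the replicate difference, the share of all genes past 2-fold was 4.25% with a pseudocount of 0.1, 1.27% with no filter, 0.789% with a filter at 10 TPM, 1.12% with TMM scaling and 1.08% with DESeq2 size factors, and at 1.5-fold it was 6.03%. The members past the fold numbered 0 in all of these except at 1.5-fold, where they numbered 2. Leaving out each replicate gave the single-library values: −6.34 to −5.91 for Psmb9 to Psmb6, −3.21 to −2.72 for Psmb10 to Psmb7, −4.20 to −3.42 for Psmb8 to Psmb5, and 4.04% to 5.79% for the immunoproteasome share. The single-library levels were 16.4 and 29.3 TPM for Psmb8, and 2.89 and 5.52 TPM for Psme2b. Under TMM scaling 6 members, and under DESeq2 size factors 7, had the other sign of difference, each of at most 0.09 in size in TPM. Depth limits Psma8 and Psme2b, which rest on the fewest counts.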
